A study of Mus musculus with 6 samples.

Results

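The collagen genes of muscle fibro/adipogenic progenitors (FAPs) were described over all groups of a study that shifted the processing of the Pdgfra transcript in injured muscle. A gene was taken as a member when a probe set of the array carried exactly 1 symbol made of Col, a number, a and a number, and the probe set with the highest mean was used where a gene had several. This gave 44 collagen genes of 19938 named genes. They were 11 fibrillar, 9 network, 9 FACIT (fibril-associated, with interrupted helices) and 15 other collagens. The choice used names and no measured differences, but it was made with earlier results of these data known. FAPs are the resident stromal progenitors of muscle and can become fibroblasts or fat cells. All 3 groups were male C57/Bl6 mice aged 8 to 12 weeks, labelled as wild type, whose tibialis anterior muscles received 30 µL of 50% glycerol, an injury that leaves fat and scar. After 3 days they were given a vivo-morpholino (VMO), an antisense oligomer that covers a site on an RNA, and FAPs were collected 2 days later. The control VMO, the pA-VMOs against polyadenylation sites and the 5'ss-VMO against a 5' splice site had 2 arrays each, and each array held cells pooled from 4 mice. The VMO was injected into the muscle, where cells other than FAPs are exposed to it too.

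Collagens are secreted proteins in which chains with a repeating Gly-X-Y motif wind into a helix. Fibrillar collagens form the load-bearing cables of scar and tendon, network collagens form sheets such as the basement membrane around each muscle fibre, and FACIT collagens sit on the surface of fibrils. The remaining types include the beaded filaments of type VI, which muscle fibroblasts lay down next to the basement membrane, the anchoring fibrils of type VII, membrane-bound types and the vessel-associated types XV and XVIII. FAPs are known as a main source of collagen in injured muscle, and signalling through the receptor PDGFRα is known to drive fibrosis. The study aimed to change the balance between the full receptor transcript and a shorter one that ends inside an intron. The comparison therefore addresses whether collagen transcripts moved with it.

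The start regions of the collagen genes on which the results below turn are shown from RefSeq (GRCm38.p6), each 250 bases before to 50 bases after an annotated start. Col1a2 stands for the fibrillar genes, Col8a1 is the member with the smallest p in the comparisons with control, and Col4a1 with Col4a2 and Col4a6 with Col4a5 are pairs of basement membrane genes that start next to each other on opposite strands. The regions are chr6:4505368-4505667 (plus strand), chr16:57754688-57754987 (minus), chr8:11312777-11313076 (minus), chr8:11312555-11312854 (plus), chrX:141474027-141474326 (minus) and chrX:141475169-141475468 (plus). Capitals mark CCAAT, a short motif bound by the ubiquitous factor NF-Y. They also mark TATAAA, which places the start of transcription in genes that have it near the start. Finally they mark GGGCGG, the usual binding motif of Sp1 and related zinc finger factors. All were searched on both strands.
Col1a2: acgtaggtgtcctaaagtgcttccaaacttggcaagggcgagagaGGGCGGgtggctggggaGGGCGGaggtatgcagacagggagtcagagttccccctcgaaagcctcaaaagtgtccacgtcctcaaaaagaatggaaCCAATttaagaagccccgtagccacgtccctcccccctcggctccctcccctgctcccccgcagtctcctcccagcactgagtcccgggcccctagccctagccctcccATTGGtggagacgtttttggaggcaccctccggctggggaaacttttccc
Col8a1: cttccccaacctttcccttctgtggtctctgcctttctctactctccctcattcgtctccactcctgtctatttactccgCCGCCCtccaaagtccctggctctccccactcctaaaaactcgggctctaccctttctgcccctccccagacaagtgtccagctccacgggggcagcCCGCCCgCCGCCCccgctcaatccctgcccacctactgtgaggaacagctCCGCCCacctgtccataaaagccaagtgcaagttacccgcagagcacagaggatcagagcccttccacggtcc
Col4a1: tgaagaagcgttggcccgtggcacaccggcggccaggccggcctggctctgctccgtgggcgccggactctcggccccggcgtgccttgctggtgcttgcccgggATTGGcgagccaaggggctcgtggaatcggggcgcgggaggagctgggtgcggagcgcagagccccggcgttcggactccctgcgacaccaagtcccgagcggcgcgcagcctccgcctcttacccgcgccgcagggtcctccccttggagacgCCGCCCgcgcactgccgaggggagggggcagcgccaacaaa
Col4a2: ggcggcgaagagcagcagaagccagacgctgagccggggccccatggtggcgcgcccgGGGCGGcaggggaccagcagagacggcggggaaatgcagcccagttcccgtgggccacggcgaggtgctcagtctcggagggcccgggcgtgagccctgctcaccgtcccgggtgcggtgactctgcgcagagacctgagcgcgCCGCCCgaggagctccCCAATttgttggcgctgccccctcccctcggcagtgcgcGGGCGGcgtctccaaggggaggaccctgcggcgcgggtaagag
Col4a6: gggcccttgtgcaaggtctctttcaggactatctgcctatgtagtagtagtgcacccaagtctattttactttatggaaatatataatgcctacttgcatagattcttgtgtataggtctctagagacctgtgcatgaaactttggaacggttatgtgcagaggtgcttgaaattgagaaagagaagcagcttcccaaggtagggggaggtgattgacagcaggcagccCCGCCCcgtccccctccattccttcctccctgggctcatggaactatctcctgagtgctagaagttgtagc
Col4a5: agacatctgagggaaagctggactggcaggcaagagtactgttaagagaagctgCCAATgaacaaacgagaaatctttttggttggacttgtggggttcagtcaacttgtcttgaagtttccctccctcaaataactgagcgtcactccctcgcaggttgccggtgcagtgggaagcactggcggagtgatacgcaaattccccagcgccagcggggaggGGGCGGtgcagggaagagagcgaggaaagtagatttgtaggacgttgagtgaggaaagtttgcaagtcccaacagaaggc

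The windows of Col4a1 and Col4a2 shared 78 bases, and their annotated starts lay 21 bases apart. Those of Col4a6 and Col4a5 lay 1343 bases apart. Of the 44 members 35 had a window in the table, 38 windows in all. The Col1a2 window held CCAAT at position -109 and, on the other strand, at position 1, and GGGCGG at -205 and -188, counted from the start. The Col8a1 window held GGGCGG at -170, -73, -66 and -23, on the other strand, and neither of the other motifs. The letters GGGCGG stood in 23 of the 38 collagen windows (60.5%) and in 35.7% of all 32851 windows. They were in 6 of 8 fibrillar windows, 6 of 8 network windows, 2 of 6 FACIT windows and 9 of 16 others. CCAAT stood in 13 of 38 (34.2%, against 37.4% of all) and TATAAA in 5 of 38 (13.2%, against 13.6%). These are letter matches, which may overlap, and were not tested as binding sites. Col1a1, Col2a1, Col4a3, Col5a2, Col9a3, Col12a1, Col14a1, Col22a1 and Col26a1 had no entry.

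RNA was read on Affymetrix Mouse Gene 1.0 ST arrays, and the deposited values are log2 levels that run from 1.38 to 13.50. The arrays correlated at 0.993 to 0.997 over the 14953 genes tested, and none stood apart from the rest. Pdgfra, the targeted gene, had levels of 11.24 to 11.37 on all 6 arrays, but its 1 probe set gives a single value for the gene, which does not tell its transcripts apart. Of the 17 FAP markers 15 had a named probe set, all with a mean above the level filter of 5.21, below which lay the 25% of genes with the lowest means. Precision rests on 2 arrays a group: over the tested collagens a difference had a median standard error of 0.071 (log2), and no exact permutation test of a single gene can reach a p under 0.333.

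**Figure D1:**
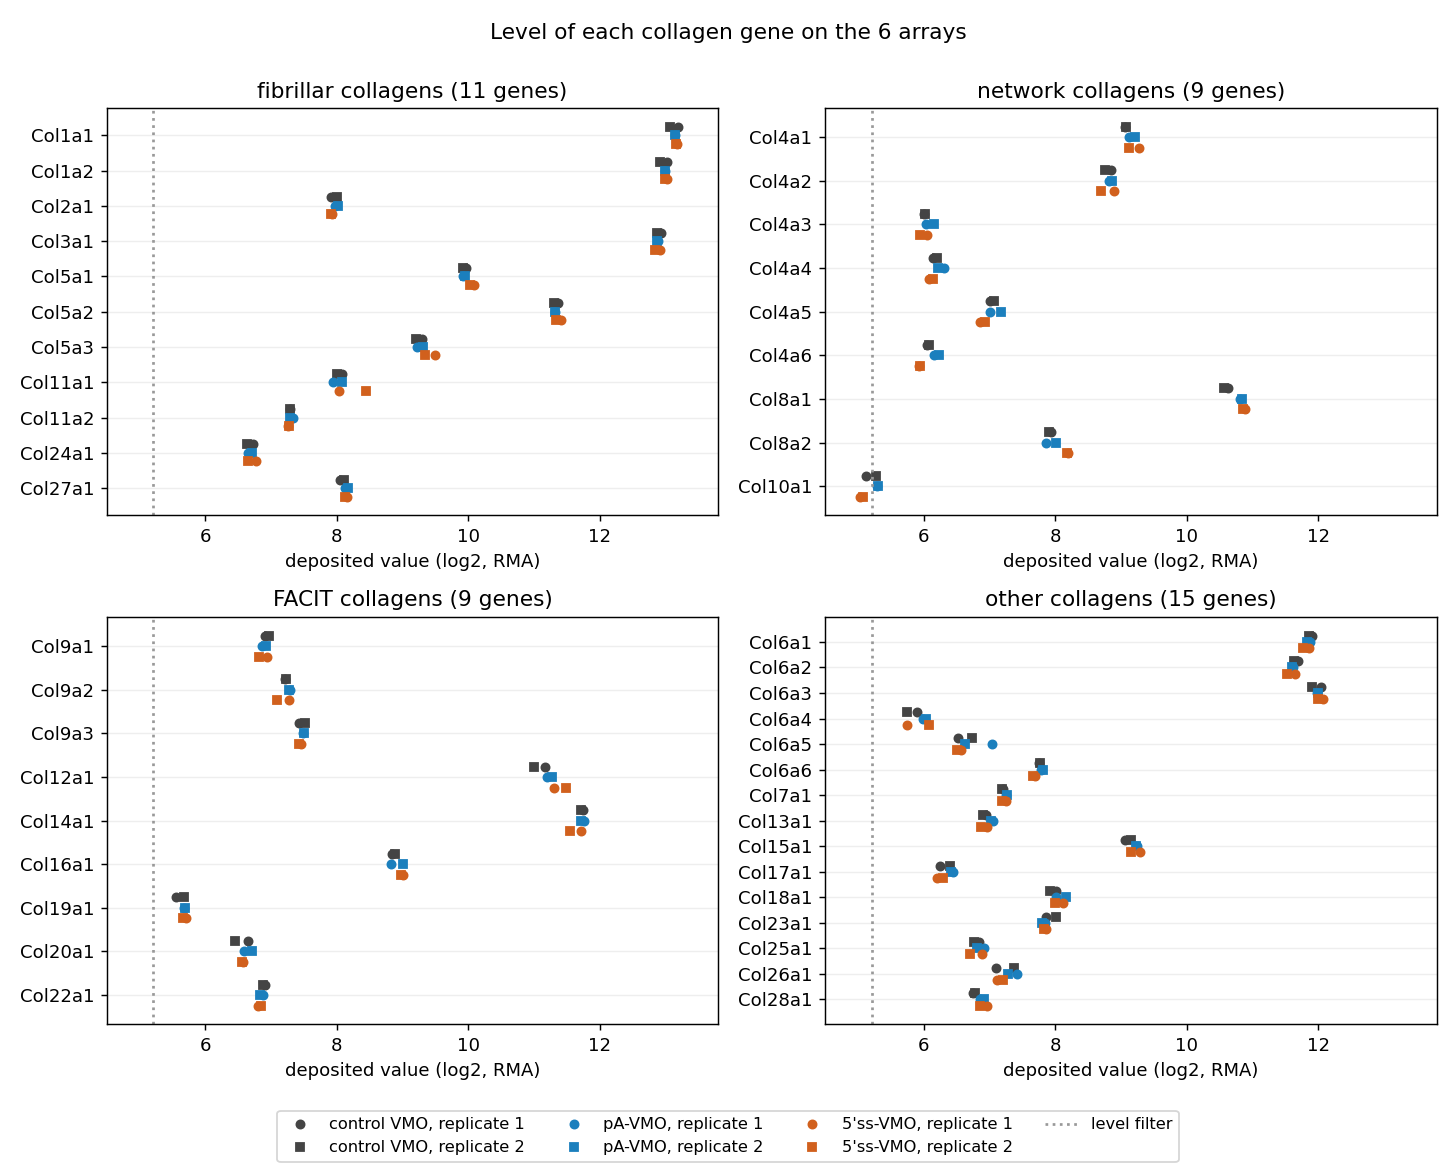
Deposited log2 value (x axis) of each of the 44 collagen genes on each of the 6 arrays, by class; colours are the VMO groups, circles and squares are replicates 1 and 2, and the dotted line is the level filter of 5.21. For most genes the symbols of all 6 arrays nearly coincide, and Col10a1 is the gene at the filter.

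No collagen gene passed the test in any of the 3 comparisons. The test was limma across all 14953 genes with Benjamini-Hochberg adjustment, two-sided, at an adjusted p of 0.05. Of the members 43 passed the level filter and were tested. Col10a1, the hypertrophic cartilage collagen, had values of 5.04 to 5.30 on the 6 arrays and was not tested. For all 43 tested genes, and in each of the 3 comparisons, the 95% interval of the difference lay inside a 1.5-fold change in either direction. The intervals reached down to -0.50 and up to 0.58 (log2).

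For pA-VMO against control VMO, 0 of 43 collagens were called by limma, against 0.00669% of all genes (1 of 14953). At an unadjusted p under 0.05 there was 1, Col8a1, where 11.4% of all genes lay. Values above control were frequent, with 34 of 43 collagens higher than control where 55.2% of all genes were. This count was 25 of 43 when each array was centred on its median, where 43.5% of all genes were higher, so it depends on the scaling. Both pA-VMO arrays lay above both control arrays for 17 collagens (background 24.1%) and below them for 2 (18.8%). The median difference over all 44 members was 0.06 (log2), beside 0.02 over all named genes, and the SD between arrays of a group in that median was 0.03.

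For 5'ss-VMO against control VMO, 0 of 43 collagens were called by limma where 0.582% of all genes were (87 genes). Col8a1, Col8a2 and Col12a1 had an unadjusted p under 0.05, beside 13.9% of all genes. The collagens were evenly split, with 21 of 43 higher than control (background 50.4%), 10 with both arrays above control (23.2%) and 8 with both below (21.5%). The median difference was -0.007, beside -0.008 over all named genes.

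For pA-VMO against 5'ss-VMO, the comparison of the reagents meant to shift the transcript in opposite directions, 0 of 43 collagens were called by limma where 0.0602% of all genes were (9 genes). At an unadjusted p under 0.05 there were 5, which were Col4a5, Col4a6, Col6a5 and Col17a1 above 5'ss-VMO and Col8a2 below it, beside 15.9% of all genes. Of the 43, 27 were higher with pA-VMO (background 51.4%), 13 with groups that did not overlap (25.5%) and 8 were lower without overlap (23.7%). With arrays centred 22 of 43 were higher, where 39.8% of all genes were. The median difference was 0.04, beside 0.02 over all named genes. Each comparison shares arrays with the other two, so their values are not independent of each other.

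**Figure D2:**
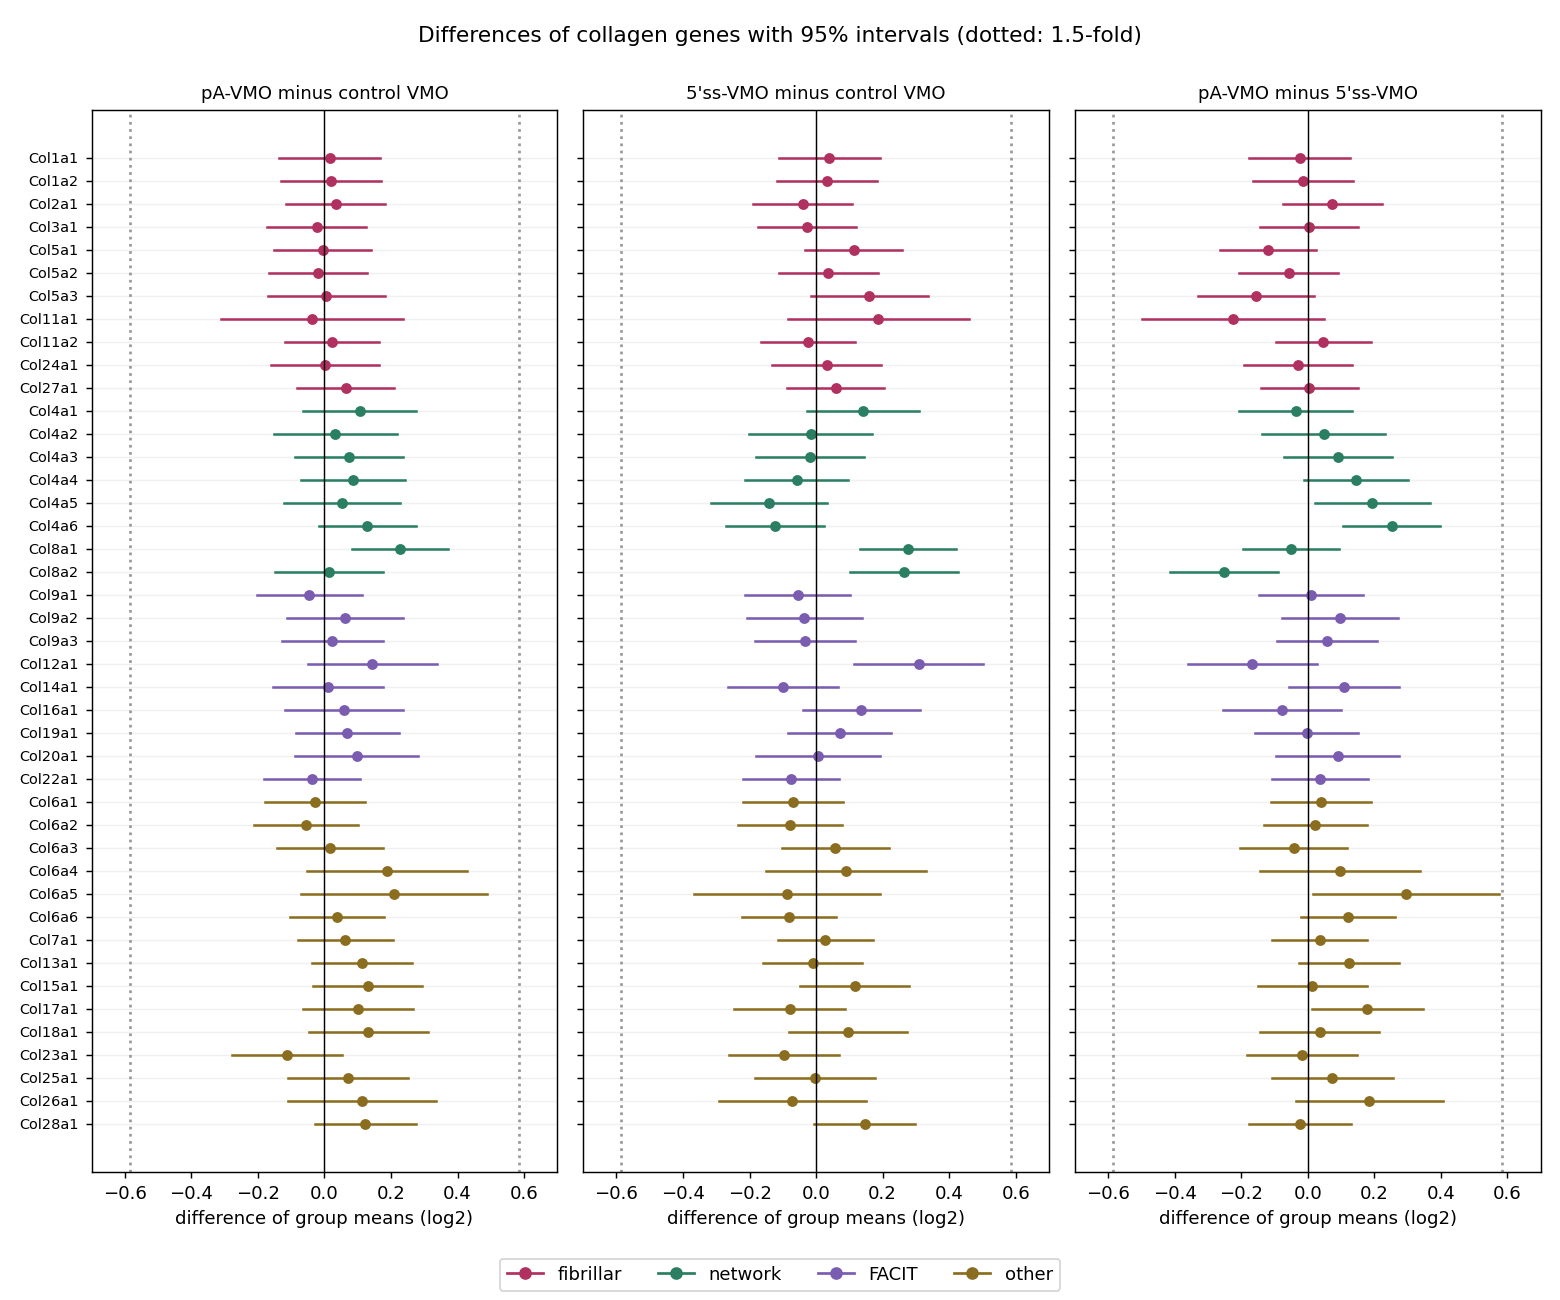
Difference of group means (x axis, log2) of the 43 tested collagen genes in the 3 comparisons, with bars for the 95% interval from limma and n = 2 arrays a group; colours are classes and dotted lines mark 1.5-fold. Every bar stays inside the dotted lines, and the differences farthest from 0 are those of Col12a1, Col8a1 and Col8a2 with 5'ss-VMO, and of Col6a5 and Col4a6 between the reagents.

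The main fibrillar collagens of scar were nearly level across the groups. Col1a1, which encodes the chain present in a pair of copies in type I collagen, had log2 levels of 13.18 and 13.07 with control VMO, 13.14 on both pA-VMO arrays, and 13.17 and 13.15 with 5'ss-VMO. The control arrays enclosed all 4 treated arrays. Against control, pA-VMO differed by 0.02 ± 0.067 (log2, SE, n = 2 arrays a group) and 5'ss-VMO by 0.04 ± 0.067 (limma adjusted p = 0.956 and 0.83). The 95% intervals were -0.14 to 0.17 and -0.11 to 0.19. Col1a2, the partner chain of type I, lay at 13.02 and 12.92 with control VMO, 12.99 and 12.98 with pA-VMO, and 13.02 and 12.99 with 5'ss-VMO. Its groups overlapped as well. Col3a1, the type III chain of early, extensible scar, lay at 12.93 and 12.87, then 12.88 and 12.87, then 12.91 and 12.83 in the same order of groups. Its difference was -0.02 with pA-VMO (interval -0.17 to 0.12) and -0.03 with 5'ss-VMO (-0.18 to 0.12). These 3 genes had levels near the highest value on the arrays, 13.50, and how far the scale still follows the RNA there was not tested. Fewer cells of a type and less RNA per cell cannot be told apart in such pooled RNA.

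Of the minor fibrillar chains, Col5a1 and Col5a3 lay above control on both 5'ss-VMO arrays without passing the test. They encode chains of type V, which regulates the width of type I fibrils. Col5a1 lay at 9.97 and 9.91 with control VMO, 9.92 and 9.95 with pA-VMO, and 10.08 and 10.03 with 5'ss-VMO. Both 5'ss-VMO arrays lay above the other 4. The difference from control was 0.11 ± 0.064 (log2, SE, n = 2 a group, limma adjusted p = 0.464). Col5a3 lay at 9.30 and 9.21, then 9.21 and 9.31, then 9.49 and 9.34. Again both 5'ss-VMO arrays were above the other 4, with a difference of 0.16 from control (adjusted p = 0.398). Col5a2, another type V chain, lay at 11.37 and 11.31, then 11.32 and 11.31, then 11.41 and 11.34, with groups that overlapped with control. Col11a1, the type XI chain of cartilage and developing tendon, lay at 8.09 and 8.01 with control VMO, 7.94 and 8.09 with pA-VMO, and 8.03 and 8.44 with 5'ss-VMO. Here 1 array carried the difference of 0.19 from control (adjusted p = 0.528), which stood at -0.02 when 5'ss-VMO replicate 2 was left out and at 0.39 when replicate 1 was. Col27a1, a chain of cartilage and bone, lay at 8.05 and 8.10 with control VMO, 8.12 and 8.16 with pA-VMO, and 8.15 and 8.12 with 5'ss-VMO. All treated arrays were above both controls, by 0.06 on average in either comparison. The cartilage chain Col2a1 lay at 7.91 and 8.00, then 7.97 and 8.02, then 7.92 and 7.91. Col11a2, of type XI, lay at 7.28 and 7.29, then 7.34 and 7.29, then 7.26 and 7.27. Col24a1 lay at 6.72 and 6.64, then 6.65 and 6.71, then 6.77 and 6.65. These 3 differed from control by no more than 0.04 in either direction. The fibrillar class had 8 of 11 members above control with 5'ss-VMO (50.4% of all genes) and 7 of 11 with pA-VMO (55.2%). The latter count was 2 of 11 with arrays centred on their median, where 43.5% of all genes were higher. The median difference of the class was 0.04 with 5'ss-VMO and 0.005 with pA-VMO, where the SD between arrays of a group was 0.025.

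Among the network collagens, the short-chain type VIII genes had the largest differences from control with 5'ss-VMO, while with pA-VMO only Col8a1 of the pair did and Col8a2 had the smallest of the class tested. Col8a1, which encodes a chain of the hexagonal sheets under vessel and corneal endothelium and is made by activated fibroblasts, lay at 10.63 and 10.57 with control VMO, 10.81 and 10.84 with pA-VMO, and 10.89 and 10.86 with 5'ss-VMO. All 4 treated arrays lay above both control arrays. The difference was 0.23 ± 0.064 (log2, SE; 1.17-fold, limma adjusted p = 0.281) with pA-VMO and 0.28 ± 0.064 (1.21-fold, adjusted p = 0.116) with 5'ss-VMO, and neither passed. With 5'ss-VMO it passed under 2 of the other settings, at an adjusted p of 0.00819 when the prior variance followed the level (limma-trend) and 0.0494 when genes below the median level were left out. It did not pass under the other planned settings or without any single array. Col8a2, the other type VIII chain, lay at 7.93 and 7.91 with control VMO, 7.86 and 8.01 with pA-VMO, and 8.20 and 8.18 with 5'ss-VMO. The pA-VMO arrays enclosed the control arrays, and both 5'ss-VMO arrays lay above the other 4. It differed from control by 0.26 ± 0.072 with 5'ss-VMO (adjusted p = 0.173), and by 0.01 under pA-VMO (adjusted p = 0.967). Between the reagents it was -0.25 (interval -0.41 to -0.09, limma adjusted p = 0.161).

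None of the basement membrane chains of type IV passed the test. Col4a1 and Col4a2, the common chains, share the start region printed above. Col4a1 lay at 9.06 and 9.07 with control VMO, 9.12 and 9.22 with pA-VMO, and 9.28 and 9.13 with 5'ss-VMO, so that all treated arrays were above both controls. It differed from control by 0.11 and 0.14 in that order (limma adjusted p = 0.638 and 0.435). Col4a2 lay at 8.86 and 8.76, then 8.81 and 8.87, then 8.90 and 8.69 in the same order of groups. Its groups overlapped in all comparisons, with differences of 0.03 and -0.02 from control.

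Col4a5 and Col4a6, chains of the X chromosome that serve smooth muscle and some epithelial basement membranes, had group means on opposite sides of control. Col4a6 lay at 6.05 and 6.08 with control VMO, 6.15 and 6.24 with pA-VMO, and 5.94 and 5.95 with 5'ss-VMO. No groups overlapped. The difference between the reagents was 0.25 ± 0.065 (log2, SE; 1.19-fold, interval 0.11 to 0.40, limma adjusted p = 0.13), and it stayed between 0.21 and 0.29 with any of these 4 arrays left out. Col4a5 lay at 7.01 and 7.07 with control VMO, 7.01 and 7.18 with pA-VMO, and 6.86 and 6.94 with 5'ss-VMO. Both 5'ss-VMO arrays lay below the other 4, and pA-VMO overlapped with control. Between the reagents Col4a5 differed by 0.19 (limma adjusted p = 0.265). Col4a3, a chain of kidney and lung basement membrane, lay at 6.01 and 6.02, then 6.03 and 6.15, then 6.05 and 5.95. Its partner Col4a4 lay at 6.14 and 6.21, then 6.30 and 6.21, then 6.08 and 6.15. Both pA-VMO arrays were above both controls for each, and Col4a4 differed by 0.15 between the reagents (adjusted p = 0.34). Col10a1, not tested, was on the same sides, at 5.13 and 5.27 with control VMO, 5.28 and 5.30 with pA-VMO, and 5.04 and 5.08 with 5'ss-VMO. All 8 tested network members lay above control with pA-VMO (55.2% of all genes) and 7 of 8 with arrays centred (43.5%). Of the 8, 5 did so without overlap with pA-VMO (24.1%), and 3 lay above control with 5'ss-VMO (50.4%). The class medians were 0.09 and -0.02 in that order, with an SD between arrays of 0.049.

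**Figure D3:**
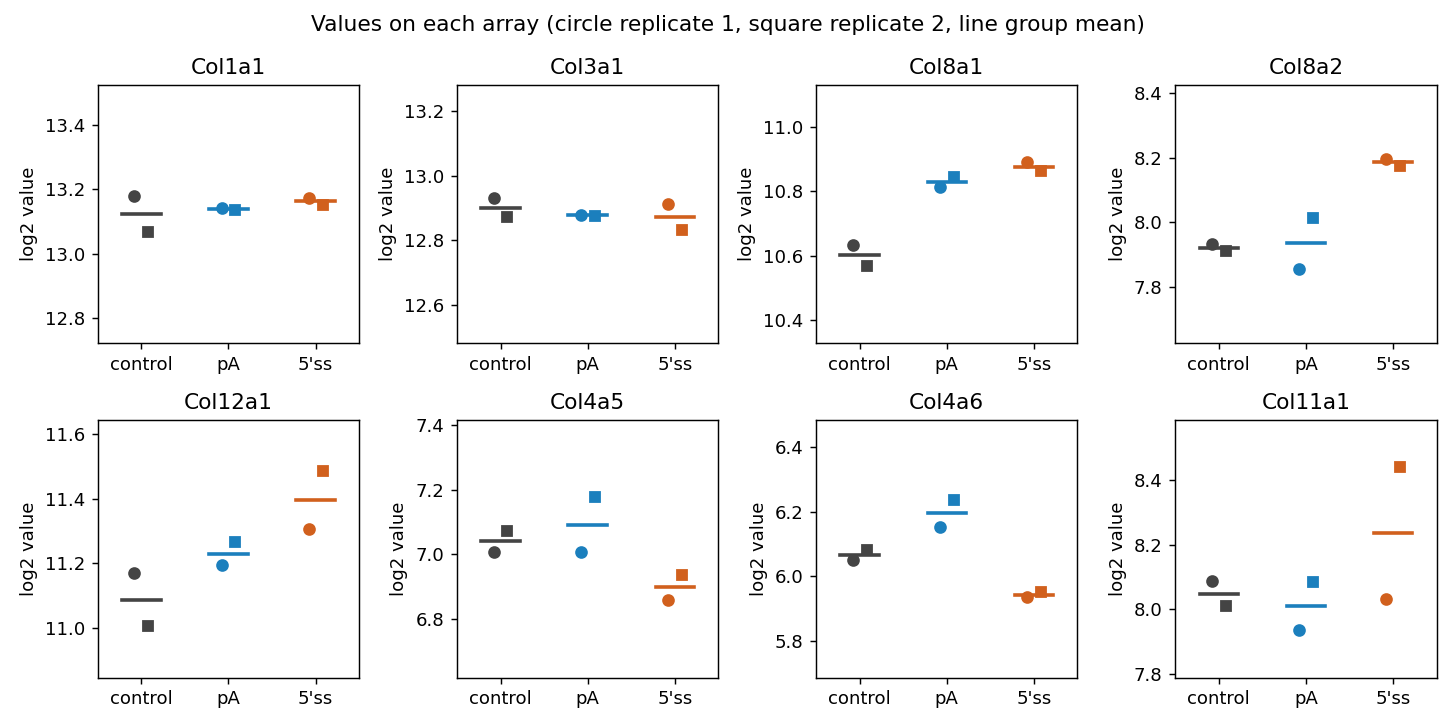
Log2 values (y axis, all panels with the same span) of 8 collagen genes on each array of the control VMO, pA-VMO and 5'ss-VMO groups, with circles for replicate 1, squares for replicate 2 and lines for group means. Col1a1 and Col3a1 overlap between groups, the treated arrays of Col8a1 and Col12a1 lie above the control arrays, and Col11a1 has 1 high array, at 8.44.

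FACIT collagens, which decorate the surface of fibrils, held the difference farthest from 0 in the comparison of 5'ss-VMO with control. Col12a1, a chain linked to tension-bearing matrix of tendon and muscle, lay at 11.17 and 11.00 with control VMO, 11.19 and 11.27 with pA-VMO, and 11.31 and 11.49 with 5'ss-VMO. The 3 groups did not overlap. Its difference was 0.31 ± 0.086 (log2, SE; 1.24-fold, interval 0.12 to 0.50, limma adjusted p = 0.179) with 5'ss-VMO and 0.14 (interval -0.05 to 0.34, adjusted p = 0.561) for pA-VMO. With limma-trend the first passed, at an adjusted p of 0.0298. Its value ran from 0.22, without 5'ss-VMO replicate 2, to 0.40, without replicate 1. Col14a1, the related type XIV chain of dermis and tendon, lay below control on both 5'ss-VMO arrays. Its levels were 11.74 and 11.71 with control VMO, 11.76 and 11.72 with pA-VMO, and 11.71 and 11.55 with 5'ss-VMO, a difference of -0.10 (adjusted p = 0.586) with 5'ss-VMO. Col16a1, a chain of several connective tissues, lay at 8.83 and 8.88 with control VMO, 8.82 and 9.01 with pA-VMO, and 9.01 and 8.97 with 5'ss-VMO, the last 0.14 above control (adjusted p = 0.473). The type IX chains of cartilage were close to control. Col9a1 lay at 6.91 and 6.96, then 6.86 and 6.92, then 6.94 and 6.82. Col9a2 lay at 7.21 and 7.22, then 7.28 and 7.27, then 7.28 and 7.08, and its pA-VMO arrays were both above control. Col9a3 lay at 7.42 and 7.52, then 7.48 and 7.50, then 7.45 and 7.42. These 3 differed from control by -0.06 to 0.06. Col19a1 lay at 5.55 and 5.67 with control VMO, 5.67 and 5.69 with pA-VMO, and 5.71 and 5.65 with 5'ss-VMO. Col20a1 lay at 6.65 and 6.46, then 6.59 and 6.71, then 6.57 and 6.55, so that its control arrays enclosed both 5'ss-VMO arrays. Col22a1, of the junction between muscle and tendon, lay at 6.91 and 6.88, then 6.88 and 6.83, then 6.80 and 6.84. It was below both controls on both 5'ss-VMO arrays, by 0.08 on average (adjusted p = 0.64). In the class 7 of 9 members lay above control with pA-VMO (55.2% of all genes) and 4 of 9 with 5'ss-VMO (50.4%). With arrays centred the former count was 5 of 9 (43.5%). The medians were 0.06 and -0.03, with an SD between arrays of 0.031.

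Among the other collagens, type VI, the beaded filament of the muscle interstitium, was nearly level in its 3 main chains. Col6a1 lay at 11.91 and 11.86 with control VMO, 11.88 and 11.83 with pA-VMO, and 11.86 and 11.77 with 5'ss-VMO. The pA-VMO arrays overlapped with control, and both 5'ss-VMO arrays were just below it. The differences from control were -0.03 and -0.07 (intervals -0.18 to 0.12 and -0.22 to 0.08). Col6a2 lay at 11.70 and 11.63, then 11.62 and 11.60, then 11.64 and 11.53, with both pA-VMO arrays just below both controls. Col6a3, the longest of the 3, lay at 12.05 and 11.91, then 11.99 and 12.00, then 12.07 and 12.00. The first differed from control by -0.06 and -0.08, and the latter by 0.02 and 0.06. The alternative type VI chains were less even. Col6a5 lay at 6.52 and 6.73 with control VMO, 7.03 and 6.63 with pA-VMO, and 6.56 and 6.51 with 5'ss-VMO. The pA-VMO arrays stood 0.40 apart, more than any other member of that group, and the difference of 0.21 from control (limma adjusted p = 0.56) was 0.008 without pA-VMO replicate 1. Its other probe set, with a lower mean level of 5.49, differed from control by 0.43 under pA-VMO and by -0.06 under 5'ss-VMO, on the same sides as the first. This probe set lay at 5.63 and 5.11 with control VMO and 6.11 and 5.49 with pA-VMO, so pA-VMO replicate 1 was the higher array again. Both probe sets were read on the same arrays and are not independent. Col6a4 lay at 5.90 and 5.74, then 5.98 and 6.03, then 5.74 and 6.08, with a difference of 0.19 for pA-VMO (adjusted p = 0.539). Both of its pA-VMO arrays were above both controls, and the 5'ss-VMO arrays lay at or beyond the ends of the control range. Col6a6 lay at 7.75 and 7.78, then 7.79 and 7.81, then 7.70 and 7.66, with no overlap between groups. The 2 probe sets of Col6a6 differed from control by 0.04 and -0.006 with pA-VMO and by -0.08 and -0.04 with 5'ss-VMO.

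The vessel-associated, anchoring and membrane-bound types differed from control by no more than 0.15. Col15a1, a basement membrane linker of vessels and muscle, lay at 9.06 and 9.15 with control VMO, 9.24 and 9.23 with pA-VMO, and 9.29 and 9.15 with 5'ss-VMO. All treated arrays were above both controls, and the differences were 0.13 and 0.12 (limma adjusted p = 0.532 and 0.51). Col18a1, the source of the fragment endostatin, lay at 8.01 and 7.92, then 8.02 and 8.17, then 8.12 and 8.00. It differed from control by 0.13 and 0.10 (adjusted p = 0.56 and 0.626). Col28a1, a chain with von Willebrand factor A domains, lay at 6.76 and 6.78 with control VMO, 6.86 and 6.92 with pA-VMO, and 6.96 and 6.86 with 5'ss-VMO. All treated arrays were above both controls, by 0.12 and 0.15 on average (adjusted p = 0.525 and 0.373). Col23a1, a membrane-bound chain, was the member of this class farthest below control in both comparisons, at 7.86 and 8.01 with control VMO, 7.85 and 7.80 with pA-VMO, and 7.85 and 7.83 with 5'ss-VMO. Its differences were -0.11 and -0.10 (adjusted p = 0.595 for both). Col17a1, of epithelial hemidesmosomes, lay at 6.26 and 6.40, then 6.44 and 6.42, then 6.21 and 6.29, and differed by 0.18 between the reagents (adjusted p = 0.279). Col26a1, first known from testis and ovary, lay at 7.10 and 7.38, then 7.42 and 7.28, then 7.12 and 7.21, and its control arrays were the members' widest control pair. Col13a1, a membrane-bound chain of the neuromuscular junction, lay at 6.95 and 6.90, then 7.05 and 7.02, then 6.96 and 6.87, with both pA-VMO arrays above the other 4. Col7a1, of anchoring fibrils under epithelia, lay at 7.21 and 7.19, then 7.25 and 7.28, then 7.25 and 7.20. Col25a1, a membrane-bound chain of nerve and developing muscle, lay at 6.84 and 6.76, then 6.92 and 6.82, then 6.88 and 6.71. These last 3 differed from control by -0.01 to 0.11. Under pA-VMO 12 of 15 members of the class lay above control (55.2% of all genes), 8 of them without overlap (24.1%). With arrays centred 11 did (43.5%). Under 5'ss-VMO 6 of 15 did (50.4%), and 7 with arrays centred (52.0%). The medians were 0.10 and -0.01, with an SD between arrays of 0.021.

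**Figure D4:**
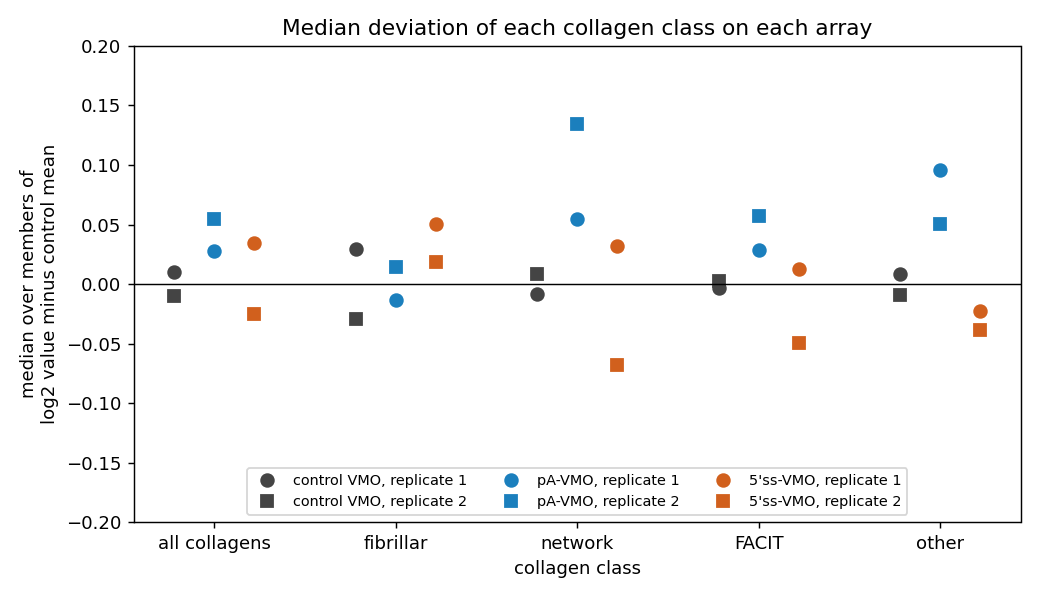
Median over the members of each collagen class of the log2 value minus the mean of the control arrays (y axis), for each of the 6 arrays; colours are groups, circles replicate 1 and squares replicate 2. The pA-VMO arrays lie above both control arrays for the network, FACIT and other classes, the fibrillar medians of pA-VMO lie between the control arrays, and all points lie within 0.14 of 0.

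Across classes the median differences ran from 0.005 (fibrillar) to 0.10 (other) for pA-VMO, and from -0.03 (FACIT) to 0.04 (fibrillar) for 5'ss-VMO, with no test of the classes against each other. On single arrays the network median stood at 0.05 and 0.13 with pA-VMO, while the 5'ss-VMO arrays had 0.03 and -0.07, on either side of control. The fibrillar median stood at -0.01 and 0.01 with pA-VMO, inside the range of the control arrays, which was -0.03 to 0.03.

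The enzymes that modify, fold and crosslink collagen held 1 called gene. Of 33 genes of this list 30 were tested. With 5'ss-VMO 0 were called higher and 1 lower by limma, where 0.582% of all genes tested were called (87 genes). Colgalt2, a galactosyltransferase that adds sugar to collagen hydroxylysine, lay at 6.30 and 6.26 with control VMO, 6.09 and 6.11 with pA-VMO, and 5.91 and 5.89 with 5'ss-VMO. No groups overlapped. It fell by 0.38 ± 0.062 (log2, SE, n = 2 a group, limma adjusted p = 0.0386) with 5'ss-VMO, and its difference was -0.18 under pA-VMO (adjusted p = 0.349). The call was lost in the 4 fits that left out a control or 5'ss-VMO array, which leave 1 array in a group, with a value of -0.40 to -0.36. It held with limma-trend (adjusted p = 0.0315). The prolyl hydroxylase subunits P4ha1 and P4ha2, which stabilise the helix, lay 0.20 and 0.24 above control with 5'ss-VMO (log2 differences, adjusted p = 0.269 and 0.257), and Pcolce2, an enhancer of procollagen C-proteinase, had a difference of -0.20 (adjusted p = 0.257) and stood 0.22 higher under pA-VMO than under 5'ss-VMO (adjusted p = 0.177). With 5'ss-VMO 8 of 30 had an unadjusted p under 0.05, 6 higher and 2 lower, where 13.9% of all genes did. Both 5'ss-VMO arrays lay above both controls for 14 of 30 (background 23.2%) and below them for 6 (21.5%). With pA-VMO and between the reagents 0 of 30 were called by limma, and 1 and 5 had an unadjusted p under 0.05, beside 11.4% and 15.9% of all genes. Adamts3, a procollagen N-proteinase read here by the brightest of 16 probe sets, differed by -0.19 under pA-VMO (adjusted p = 0.495) and by -0.31 between the reagents (adjusted p = 0.175). It lay at 8.04 and 7.99 with control VMO, 7.68 and 7.98 with pA-VMO, and 8.15 and 8.13 with 5'ss-VMO. Replicate 1 of pA-VMO thus carried most of the difference from control. Values of its other probe sets are not given here. The list's median differences were -0.005 under pA-VMO and 0.02 under 5'ss-VMO, beside 0.02 and -0.008 over all named genes. Of the collagen receptors 9 of 10 were tested and 0 were called in any comparison, where 0.00669%, 0.582% and 0.0602% of all genes were. At an unadjusted p under 0.05 there were 0, 0 and 1, beside 11.4%, 13.9% and 15.9% of all genes. That 1 was Itga11, the integrin subunit that binds fibrillar collagen, at 9.82 and 9.77 with control VMO, 9.67 and 9.63 with pA-VMO, and 9.87 and 9.84 with 5'ss-VMO. The pA-VMO arrays were below the other 4, with a difference of -0.20 from 5'ss-VMO (limma adjusted p = 0.178). Ddr2, a receptor kinase for fibrillar collagen, lay between 10.37 and 10.44 on all arrays.

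Markers of FAPs and of other cells moved beside these values, and their part in them was not tested. Of 15 FAP markers 11 lay below control with pA-VMO, 10 of them without overlap (18.8% of all genes). With 5'ss-VMO 12 did, 7 of them without overlap (21.5% of all genes). Other FAP markers went the opposite way: 4 under pA-VMO, 2 of them without overlap (24.1%), and 3 under 5'ss-VMO, all without overlap (23.2%). Thy1 and Pdgfrb exceeded both control arrays in each treated group, and Hic1 did so under 5'ss-VMO only, by 0.24 (limma adjusted p = 0.244). The mean level of the 15 FAP markers was 10.33 to 10.35 on the control arrays, 10.22 to 10.24 with pA-VMO and 10.22 to 10.27 with 5'ss-VMO. Dpp4, a marker of a FAP subset, fell with 5'ss-VMO by 0.52 on the log2 scale (limma adjusted p = 0.0318). Endothelial cells are known to make types IV, VIII, XV and XVIII. The 12 endothelial markers had a median difference of 0.14 for pA-VMO, and 0.23 for 5'ss-VMO. Their mean level was 5.93 to 6.05 with control VMO, 6.09 to 6.15 with pA-VMO and 6.17 to 6.19 with 5'ss-VMO. Of 11 tested, 9 and 7 lay above control in that order (55.2% and 50.4% of all genes), and Emcn lay below the level filter on all 6 arrays. With 5'ss-VMO 5 lay above control without overlap (23.2% of all genes) and 3 below it (21.5%). With pA-VMO these counts were 5 (24.1%) and 1 (18.8%). Cdh5, which encodes VE-cadherin, rose with 5'ss-VMO by 0.70 (limma adjusted p = 0.00551). The 11 pericyte and smooth muscle markers had medians of 0.17 and 0.24, with 9 and 10 above control (55.2% and 50.4% of all genes). Without overlap 8 and 10 lay above control (24.1% and 23.2%), and 1 and 0 below it (18.8% and 21.5%). Des is also counted among the satellite cell and myoblast markers below. Mcam rose with 5'ss-VMO by 0.42 (limma adjusted p = 0.0443), where 0.582% of all genes were called. The mean level of this list was 7.21 to 7.22, then 7.38 to 7.40, then 7.45 to 7.52. All 4 treated arrays lay above both control arrays in these list means, and in the macrophage list mean given below. Among the types named here they did so for Col4a1, Col8a1 and Col15a1. They did not for Col4a2 to Col4a6, Col8a2 or Col18a1. Of the collagens outside these types, Col12a1, Col27a1 and Col28a1 also had all 4 treated arrays above both controls. The share of all genes with this pattern was not counted. A link between the lists and these genes was not tested.

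Tenocytes make types I, XI, XII and XIV. The 9 tenocyte markers had medians of 0.03 and -0.02, with 5 and 4 above control (55.2% and 50.4% of all genes). Their mean level was 8.70 to 8.73 with control VMO, 8.49 to 8.50 with pA-VMO and 8.61 to 8.70 with 5'ss-VMO. They did not move one way: Kera, a proteoglycan gene, fell in both comparisons with control (by 1.32 and 0.69 on the log2 scale, limma adjusted p = 0.0232 and 0.0474), and Tnc, a matrix glycoprotein gene, rose with 5'ss-VMO by 0.38 (adjusted p = 0.0386). The 16 macrophage markers had medians of 0.17 and 0.21. Their mean level was 6.48 to 6.65 with control VMO, 6.72 on both pA-VMO arrays, and 6.80 to 6.81 with 5'ss-VMO. C1qa and C1qc were called higher with 5'ss-VMO, where 0.582% of all genes were called. Cd163 lay below the filter on all arrays, and Ms4a7 on both control arrays. Of 15 tested, 12 and 13 lay above control (55.2% and 50.4% of all genes), 8 and 11 of them without overlap (24.1% and 23.2%). Mertk with pA-VMO and Cx3cr1 with 5'ss-VMO lay below control without overlap. The 12 satellite cell and myoblast markers had medians of 0.008 and 0.19, with 7 and 11 above control (55.2% and 50.4% of all genes). Their mean level was 7.21 to 7.32, then 7.28 to 7.29, then 7.49 to 7.55. Without overlap 3 and 8 lay above control (24.1% and 23.2%), and 1 and 0 below it (18.8% and 21.5%). Chrna1 was called with 5'ss-VMO, where 0.582% of all genes were. The 14 muscle fibre markers had medians of 0.04 and 0.07 with 0 called by limma, and Myh1 and Pvalb lay below the filter on all arrays. The 8 Schwann and perineurial markers found had medians of -0.02 and -0.06 with 0 called, and Cdh19 was below the filter. Of the 8 chondrocyte markers, relevant to types II, IX and X, Matn1 and Hapln1 lay below the filter on all 6 arrays. In the 3 comparisons 0 of 6 tested were called, where 0.00669%, 0.582% and 0.0602% of all genes were. No marker call with a control (Dpp4, Cdh5, Mcam, C1qa, C1qc, Chrna1, Tnc and both of Kera) held in all 4 fits that left out 1 array of the comparison. Such fits leave 1 array in a group, so losing a call there does not show that a difference was absent. The signs stayed the same, as for Kera with pA-VMO (-1.45 to -1.19) and Cdh5 with 5'ss-VMO (0.67 to 0.72). All 9 calls passed with limma-trend, a setting that called more genes in each comparison.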

How the data were processed

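The deposited values are log2 levels per probe set that, per the submitters' processing notes, the authors made with Affymetrix Expression Console by RMA (background correction, arrays made alike, probes summarised); no version is given in the sources used here. RMA compresses changes of dim probe sets, and it hides changes in total RNA. Of 35556 probe sets 21789 had 1 gene symbol in the platform annotation, 1621 several and 12146 none. They gave 19938 genes, and all 44 collagens were in the RefSeq table. Genes with a mean under the 25th percentile (log2 5.209) were left out, leaving 14953. A limma model (3.58.1, in R 4.3.3) of the group means used all 6 arrays (3 residual and 6.06 prior degrees of freedom), and the fit was tested on simulated data. Members are given in their class; those singled out are Col1a1, Col3a1, Col4a1, Col6a1, Col12a1, Col14a1 and the 3 with the largest difference per class and comparison. Of enzymes and receptors, those called and the 3 with the smallest p per comparison were named, and of markers those called. The members, classes and lists were chosen with earlier results of these data known. The alternatives tried were the filter, the prior, the normalization, the probe set, the replicate number and leaving out arrays. Same-numbered arrays were not paired.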

Additional observations from a re-analysis of the deposited data

How the results depend on the processing

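Collagen calls stayed at 0 in the 3 comparisons under the planned settings, with the exception of 5'ss-VMO against control, which had 2 (Col8a1 and Col12a1) with limma-trend and 1 (Col8a1) when genes below the median level were left out. Counts over all genes moved more. In the order pA-VMO against control, 5'ss-VMO against control and between the reagents, they were 0, 24 and 3 with no level filter and 51, 266 and 197 with limma-trend. With genes below the median level left out they were 181 for 5'ss-VMO against control and 102 between the reagents. Between the reagents they were also 102 with arrays centred on their median, 15 with the mean of a gene's probe sets and 23 with the replicate block. Same-numbered arrays did not deviate together (r = -0.10, 0.02 and -0.03), so the numbers are not taken to pair arrays; the block called 0 collagens, and crossed numbers for pA-VMO against control, an alternative chosen after seeing the data, gave 1 gene and 0 collagens. Leaving out 1 array gave 0 to 2, 8 to 76 and 1 to 17 genes in the 3 comparisons.

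Centring moved medians of pA-VMO against control to 0.026 (all collagens), -0.024 (fibrillar) and 0.070 (other), and between the reagents to 0.0022 (all), -0.057 (fibrillar), 0.0039 (FACIT) and 0.0067 (other). It turned Col1a1 to -0.014 and Col14a1 to -0.019 with pA-VMO and Col3a1 to -0.030 between the reagents. With 1 array left out, medians of pA-VMO against control ran from -0.038 to 0.021 (fibrillar), 0.026 to 0.061 (FACIT) and 0.050 to 0.096 (other). Those of 5'ss-VMO against control ran from -0.025 to 0.035 (all), 0.0036 to 0.075 (fibrillar), -0.068 to 0.032 (network), -0.050 to 0.012 (FACIT) and -0.039 to 0.010 (other). Between the reagents they ran from -0.017 to 0.066 (all), 0.031 to 0.142 (network), -0.0011 to 0.070 (FACIT) and -0.0016 to 0.084 (other). With 1 array of the comparison left out, the differences of 19, 18 and 18 of the 44 collagens, none of them called, changed sign in the 3 comparisons. Among the genes singled out by the naming rule these were, with pA-VMO, Col1a1 (-0.041 to 0.073), Col3a1 (-0.053 to 0.0056), Col14a1 (-0.0083 to 0.029), Col11a1 (-0.112 to 0.038), Col2a1 (-0.0094 to 0.077) and Col20a1 (-0.0017 to 0.195). With 5'ss-VMO they were Col1a1 (-0.017 to 0.097), Col3a1 (-0.068 to 0.013) and Col11a1 (-0.017 to 0.392), and between the reagents Col3a1 (-0.036 to 0.044), Col4a1 (-0.111 to 0.040), Col6a1 (-0.0016 to 0.082) and Col9a2 (-0.0011 to 0.196). The cause of these moves was not tested. With 2 arrays a group and a median standard error of 0.071 (log2), small differences in collagens were not detectable.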
